A study of Homo sapiens with 6 samples.

Results

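The 46 genes described here carry out or control DNA replication: the MCM2-7 helicase, the factors that load it and fire it, the DNA polymerases with their clamp and clamp loader, the enzymes that supply nucleotides, and E2F transcription factors with UHRF1. They were taken by symbol from a fixed list, and all 46 had a mean of at least 0.5 FPKM, so all were among the 14770 genes tested, of 60612 gene identifiers with values. FPKM divides the fragments of a transcript by its length and by the fragments mapped in the library, so levels of different genes can be compared per length. RNA was sequenced from MDA-MB-231 cells, an established human triple-negative breast cancer line, on day 3. By the study's figure legends, the cells stably expressed either a control short hairpin RNA (Sh-NC, 3 libraries) or one against YAP1 (Sh-YAP1, 3 libraries). The study's methods describe transfecting hairpins and checking them within days, so how long YAP1 had been low is not known. Both groups otherwise came from the same line with no drug treatment. A single hairpin label was used against YAP1, so an effect of losing YAP1 and an effect of that hairpin elsewhere cannot be told apart. The study states in general that its data came from independent experiments, but neither the labels nor its methods tie each library to its own culture, so the p-values measure the spread between these libraries, which may be technical.

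Replication starts when ORC, CDC6 and CDT1 load the MCM2-7 ring on origins in G1. CDC45 and the GINS complex then turn the ring into the active CMG helicase, and primase, the polymerases, PCNA and ligase copy the DNA behind it in S phase. Most of these genes are transcribed in late G1 and S phase by E2F factors, which bind DNA close to transcription starts and activate once the RB proteins that repress there let go. YAP1 is a co-activator that works with the TEAD factors, and its loss is widely linked to slower growth, which is why the replication genes are of interest in a YAP1 knockdown.

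The promoters of the 46 genes were searched for the letters that E2F factors bind. RefSeq promoter windows (GRCh38.p14, from 250 bases before to 50 bases after the annotated start) were matched by symbol for 40 of the 46 genes. MCM4, MCM5, GINS4, RPA2, RPA3 and E2F8 had no entry. Each window was searched on both strands for TTTCCCGC, TTTCGCGC, TTTGCCGC or TTTGGCGC, the common forms of the E2F site, and a self-overlapping palindrome counted once on each strand. The letters stood in 21 of the 40 windows (52.5%), against 3.33% of all 27305 promoters and 5.54% of the promoters of genes tested. The windows below are shown because they belong to the genes whose values are given in every library and that held the letters. Each is 30 bases, written 5′ to 3′ on the strand of the gene, with the matched letters in capitals.
MCM2: cgtgaaccactTTTCGCGCgaaacctggtt
CDC6: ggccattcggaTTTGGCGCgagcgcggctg
CDT1: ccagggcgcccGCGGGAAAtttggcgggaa
GINS1: agctttgttcgGCGCCAAAgcgcggagcgg
PCNA: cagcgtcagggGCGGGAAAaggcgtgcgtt
E2F1: ggcaaaaaggaTTTGGCGCgtaaaagtggc
E2F3: ttgaaaagccgGCGGGAAAtccgagtttcg

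These windows lie at chr3:127598402-127598431 on the plus strand for MCM2, chr17:40287875-40287904 on the plus strand for CDC6, chr16:88803743-88803772 on the plus strand for CDT1 and chr20:25407667-25407696 on the plus strand for GINS1. The PCNA window lies at chr20:5126663-5126692 on the minus strand, the E2F1 window at chr20:33686387-33686416 on the minus strand and the E2F3 window at chr6:20401815-20401844 on the plus strand. Counted from 0 at the start base, the first matched letter was at position 2 in MCM2, 7 in CDC6, 5 in GINS1, -20 in E2F1, -35 in CDT1, -53 in E2F3 and -59 in PCNA. Over the 28 matched positions, 15 promoters had one within the 60 bases before the start and 3 had one after it. The MCM2 letters overlap their own reverse complement, and E2F1 holds a second match at position -33. The CCAAT letters of the NF-Y factor stood in 24 of the 40 windows, against 35.7% of all promoters and 37.0% of those of genes tested. TTTGAA, the letters of the CHR element of mitotic genes, stood in 2 of the 40, against 15.4% of all and 9.59% of the promoters of genes tested, and GGAATG, the letters bound by the TEAD partners of YAP1, in 4 of the 40, against 14.0% and 10.8%. A match describes the letters in a window and does not show binding. TK1, DUT, RRM1, RRM2, RFC4 and POLD1, all described below with their values, held none of the E2F forms in this window.

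YAP1 (ENSG00000137693) was at 28.1, 26.2 and 22.9 FPKM in Sh-NC and at 3.35, 2.67 and 2.58 FPKM in Sh-YAP1, so all 3 libraries labelled as knockdown were below all control libraries. It fell by 2.79 on the log2(FPKM + 1) scale (SE 0.12, limma with Benjamini-Hochberg adjustment, adjusted p = 0.0018), and p was 0.1 in the exact permutation test (two-sided), the smallest that 3 libraries against 3 allow. The cell line markers VIM, CD44, EGFR, AXL, KRT8 and KRT18 were all above 48 FPKM in every library, although AXL, a receptor kinase, fell from 256 ± 5.23 to 200.3 ± 9.28 FPKM (SD, n = 3 each, log2 fold change -0.35, limma adjusted p = 0.039) and KRT18 was lower without overlap (-0.23, limma adjusted p = 0.102). Of the hormone receptor and luminal markers ESR1, PGR and CDH1 stayed at or below 0.49 FPKM. FOXA1 was low and lower without overlap, at 0.75 to 1.03 FPKM in Sh-NC and 0.36 to 0.71 FPKM in Sh-YAP1 (limma adjusted p = 0.187). EPCAM was at 2.43 to 3.27, GATA3 at 4.64 to 7.34 and ERBB2 at 14.3 to 18.1 FPKM. Of the markers of other cell types, PTPRC, CD3E, VWF and CDH5 stayed at or below 0.04 FPKM, DCN and LUM at or below 0.54 and PECAM1 at or below 1.7. CD68 stood at 56.2 to 80.2 FPKM in both groups. The libraries summed to between 467493 and 475116 FPKM. The values hold no read counts, so depth and counting error are unknown.

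None of the 46 genes passed the test. Of the 46, 0 reached an adjusted p of 0.05 (limma, with Benjamini-Hochberg adjustment over the 14770 genes), beside 3.38% of all genes tested (1.75% higher and 1.62% lower in Sh-YAP1), and 8 had an unadjusted p under 0.05, beside 21.9%. The median log2 fold change over the 46 was -0.08, against -0.0014 over all genes. Of the 46, 32 had a negative value (50.2% of all genes did) and 14 a positive one, and the values ran from -0.43 (TK1) to 0.30 (DUT). The groups did not overlap for 15 genes, 13 with Sh-YAP1 lower (14.7% of all genes) and 2 with Sh-YAP1 higher (14.6% of all genes). The 13 were CDT1, GINS1, GINS2, POLD1, POLE2, RFC4, RPA2, RPA3, FEN1, RRM1, RRM2, TK1 and E2F3, and the 2 were GINS4 and DUT. Fewer cells in S phase and less of these RNAs per cell cannot be told apart in bulk RNA.

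The intervals bound how large a change these libraries allow. In 43 of the 46 genes the 95% interval of the log2 fold change lay inside 0.585 in either direction, that is within 1.5-fold of FPKM + 1. The same held for 65.9% of all genes tested, and for 69.7% of the 10768 genes at or above the level of E2F2, the lowest of the 46. The 3 others were CDC6, GMNN and TK1. With 0.1 or 0.01 added to FPKM in place of 1, 41 of the 46 stayed inside, since GINS1 and PRIM1 then reached past the bound as well, beside 48.5% and 47.4% of all genes inside. An adjusted p above 0.05 does not show that a gene was the same in both groups. The 46 genes were abundant, with a median level of 27.0 FPKM against 7.35 for all genes tested. FEN1 was highest at a mean of 123 FPKM over the 6 libraries, E2F2 lowest at 2.57, and 11 genes stood at 50 FPKM or more.

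**Figure D1:**
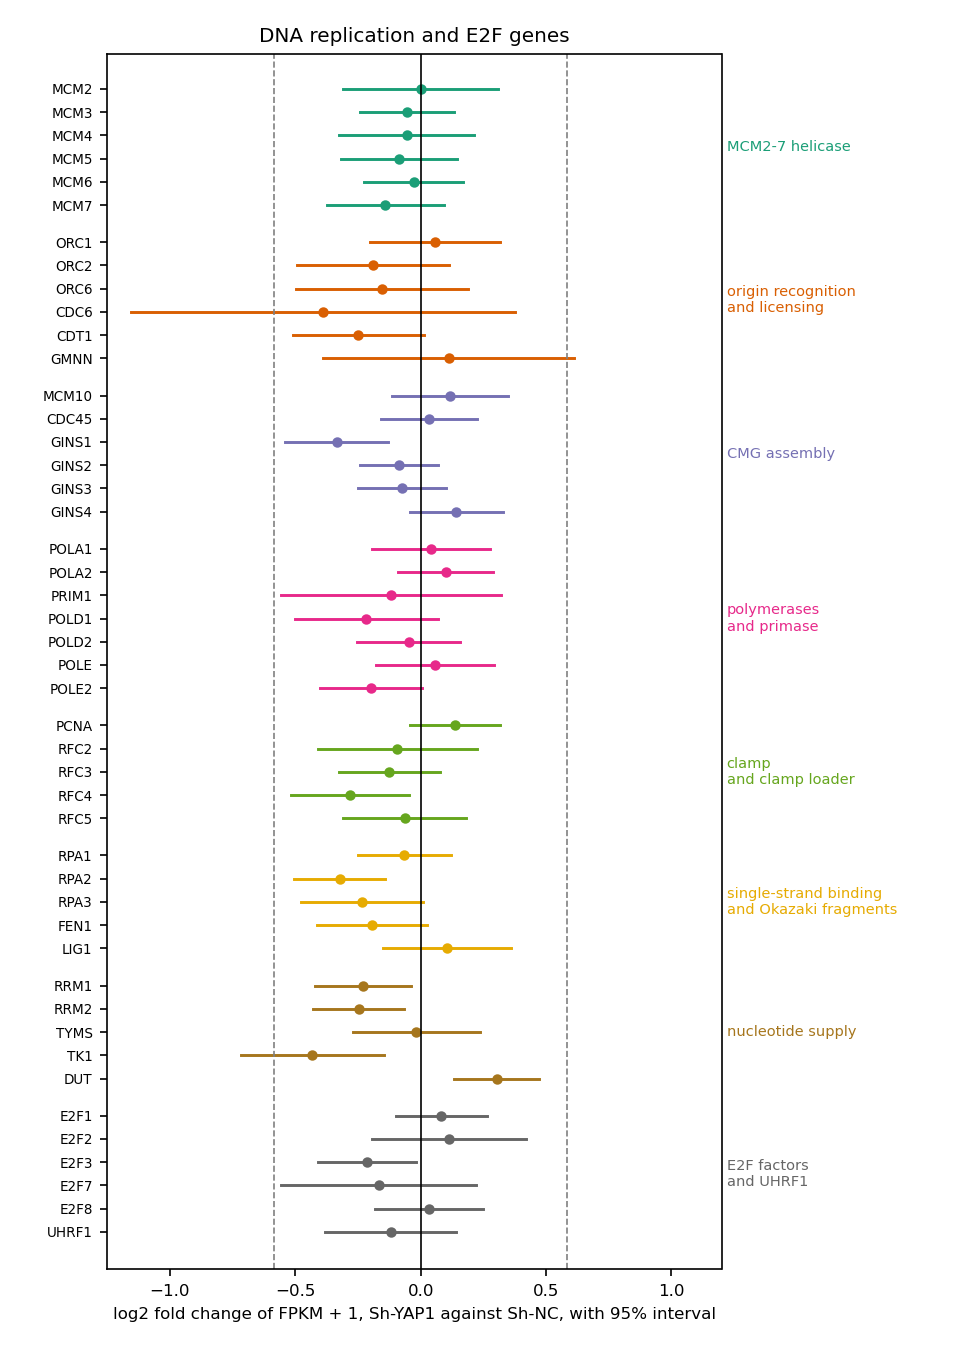
Log2 fold change of FPKM + 1 (x axis, Sh-YAP1 against Sh-NC) for each of the 46 genes, grouped by role, with the 95% interval from limma as a bar; the dashed lines mark 1.5-fold, 0.585 on the log2 scale. The bars of CDC6, GMNN and TK1 cross a dashed line, and the other 43 stay between the lines.

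Sh-YAP1 replicate 1 stood apart from the other libraries for these genes. Its median difference from the Sh-NC mean over the 46 genes was -0.16 on the log2 scale, against -0.03 in Sh-YAP1 replicate 2 and -0.01 in replicate 3. The Sh-NC libraries lay between 0.00 and 0.02. Sh-YAP1 replicate 1 was the lowest library of its group for 29 of the 46 genes (63.0%), compared with 36.5% of all genes tested, and its median over all genes was 0.00. Without it the median log2 fold change over the 46 became -0.03, with 27 negative values. The genes without overlap were then 13 lower, beside 19.5% of all genes, and 7 higher, beside 19.2%, and 0 passed the test. Most of the distance of the median from 0 thus came from 1 library. This did not hold in every role: for the polymerases and primase replicate 1 was at 0.00 and replicate 2 at -0.07, and for the licensing genes they were at -0.12 and -0.14. Over 38 other replication genes, replicate 1 was at -0.02, but it was also the lowest of its group for 20 of them (52.6%).

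**Figure D2:**
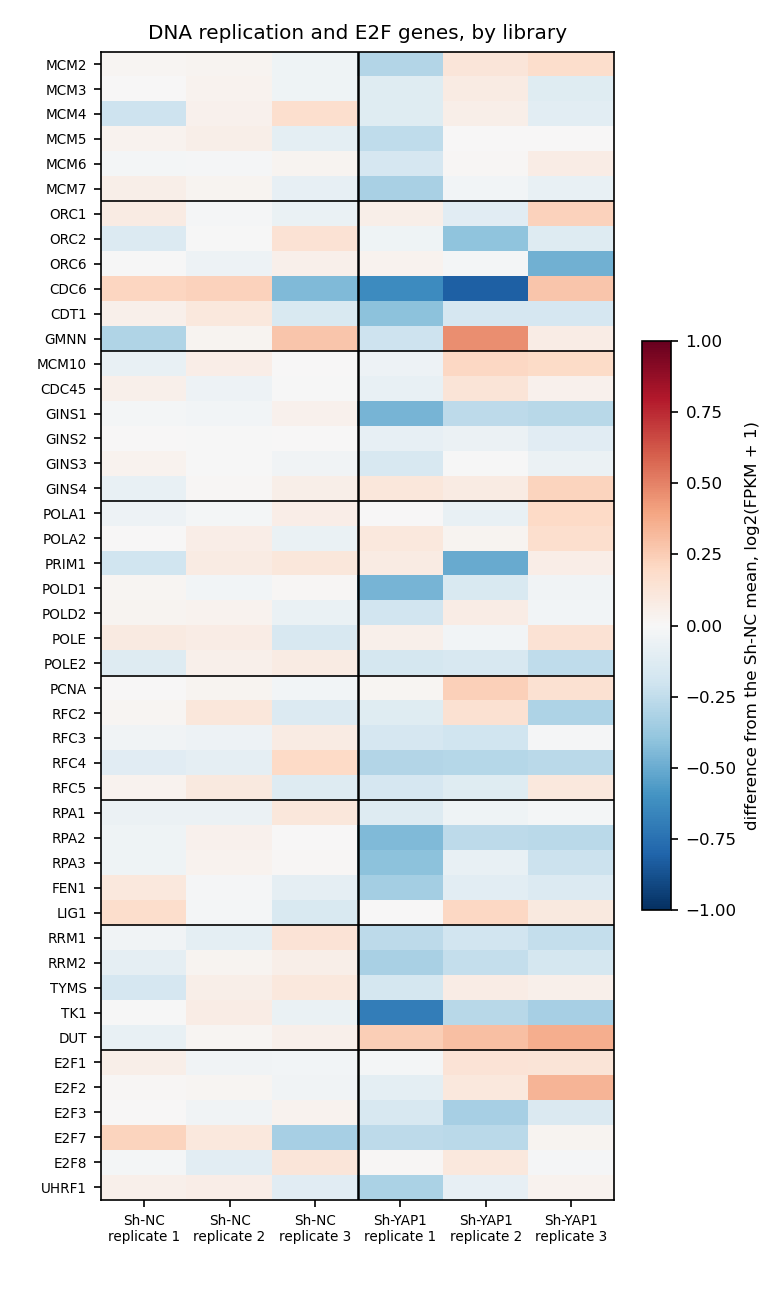
Difference of each library from the Sh-NC mean in log2(FPKM + 1) (colour, blue lower and red higher) for the 46 genes (rows, ordered by role) and the 6 libraries (columns). The column of Sh-YAP1 replicate 1 holds the most blue cells, with 35 of 46 genes below the Sh-NC mean, while the columns of replicates 2 and 3 hold 27 and 24.

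The MCM2-7 genes, which encode the ring that unwinds DNA, differed little, and their largest difference was smaller in size than the largest of every other role. All 6 log2 fold changes were negative, from -0.14 (MCM7) to -0.0002 (MCM2), with a median of -0.06, and the groups overlapped for all 6. MCM2 (ENSG00000073111) was at 56.3, 56.8 and 54.0 FPKM in Sh-NC and at 45.3, 60.5 and 62.9 FPKM in Sh-YAP1. Sh-YAP1 replicate 1 was thus the lowest of the 6 libraries and the other 2 Sh-YAP1 libraries the highest. The interval of the MCM2 log2 fold change ran from -0.31 to 0.31, and the value was 0.15 without Sh-YAP1 replicate 1. The same library was the lowest of its group for 5 of the 6 MCM genes, with a median difference from the Sh-NC mean of -0.21 against 0.04 and -0.04 in the other Sh-YAP1 libraries. MCM7, the most abundant of the ring, had means of 89.95 ± 4.71 and 81.8 ± 8.86 FPKM (SD, n = 3 each), and MCM3, MCM4, MCM5 and MCM6 lay between -0.08 and -0.03 on the log2 scale.

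Among the origin recognition and licensing genes, 4 of 6 had negative values and 1, CDT1, was lower without overlap, a share near the 14.7% of all genes. CDT1 (ENSG00000167513), which brings the MCM ring to origins, was at 19.0, 19.8 and 16.4 FPKM in Sh-NC and at 13.5, 16.2 and 16.2 FPKM in Sh-YAP1. The highest Sh-YAP1 library lay just below the lowest Sh-NC library. Its log2 fold change was -0.25 (SE 0.11, limma adjusted p = 0.246). CDC6 (ENSG00000094804), the ATPase that helps CDT1 load the ring, was at 43.0, 43.5 and 27.0 FPKM in Sh-NC and at 23.5, 20.6 and 45.0 FPKM in Sh-YAP1. The groups crossed, with a high and a low level in each, and its log2 fold change of -0.39 had the widest interval of the 46, from -1.15 to 0.38 (SE 0.32, limma adjusted p = 0.523). It was -0.61 without Sh-NC replicate 3, -0.18 without Sh-YAP1 replicate 2 and -0.72 without Sh-YAP1 replicate 3. GMNN, the CDT1 inhibitor geminin, also spread widely, from 28.4 to 43.0 FPKM in Sh-NC and from 30.5 to 49.0 FPKM in Sh-YAP1. The ORC subunits among the 46 had log2 fold changes of 0.06 (ORC1), -0.19 (ORC2) and -0.15 (ORC6), and those outside them 0.04 (ORC3), -0.10 (ORC4) and -0.09 (ORC5), each with overlapping groups.

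The CMG assembly genes went both ways, with 3 negative and 3 positive values. GINS1 (ENSG00000101003), a subunit of the 4-part GINS complex, was at 9.84, 9.78 and 10.3 FPKM in Sh-NC and at 6.95, 8.15 and 8.03 FPKM in Sh-YAP1. Every Sh-YAP1 library lay below every Sh-NC library, and the gap exceeded the range within either group. The log2 fold change was -0.33 (SE 0.09, 95% interval -0.54 to -0.13, limma adjusted p = 0.0912). The other subunits of the complex were at -0.09 (GINS2), -0.07 (GINS3) and 0.14 (GINS4), and the differences between subunits were not tested. GINS2 and GINS4 also had groups without overlap, GINS2 with means of 15.5 ± 0.046 and 14.6 ± 0.31 FPKM and GINS4 with 16.4 ± 0.83 and 18.2 ± 0.97 FPKM (SD, n = 3 each). CDC45, the third component of CMG, was at 0.03 and MCM10, which activates it, at 0.12.

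The median of the polymerase and primase genes was -0.05 on the log2 scale, with 4 of 7 negative. POLD1 (ENSG00000062822), the catalytic subunit of polymerase delta, was at 22.3, 21.7 and 22.2 FPKM in Sh-NC and at 15.7, 19.8 and 21.5 FPKM in Sh-YAP1. The groups did not overlap, but Sh-YAP1 replicate 3 lay next to the Sh-NC libraries and most of the difference was in replicate 1. Its log2 fold change was -0.22 (SE 0.12, limma adjusted p = 0.34), and -0.09 without that library. POLE2, a subunit of polymerase epsilon, had means of 14.3 ± 1.18 and 12.3 ± 0.45 FPKM (SD, n = 3 each), also without overlap, at -0.20. The catalytic subunits POLA1 and POLE stood at 0.04 and 0.06, POLA2 at 0.10, POLD2 at -0.05 and PRIM1, the catalytic primase subunit, at -0.12, all with overlapping groups.

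PCNA, the sliding clamp, had a positive value, and the loader subunits RFC2 to RFC5 had negative ones, none past the threshold, and the differences were not tested. RFC1, the large loader subunit and outside the 46, was higher without overlap, at 14.4, 15.6 and 17.3 FPKM in Sh-NC and at 19.2, 18.5 and 18.5 FPKM in Sh-YAP1 (log2 fold change 0.24, limma adjusted p = 0.172). PCNA (ENSG00000132646) was at 95.3, 96.7 and 93.1 FPKM in Sh-NC and at 96.5, 112 and 106 FPKM in Sh-YAP1. On the log2 scale it was higher by 0.14 (SE 0.07, limma adjusted p = 0.333), with Sh-YAP1 replicate 1 inside the Sh-NC range. PCNA was higher by 0.20 without Sh-YAP1 replicate 1 and by 0.09 without Sh-YAP1 replicate 2. RFC4 (ENSG00000163918), a loader subunit, was at 34.6, 35.2 and 43.2 FPKM in Sh-NC and at 30.4, 30.6 and 31.0 FPKM in Sh-YAP1. The Sh-YAP1 libraries were close to each other and all below Sh-NC, where replicate 3 was the highest. The log2 fold change was -0.28 (SE 0.10, limma adjusted p = 0.168), and -0.18 without Sh-NC replicate 3. RFC2, RFC3 and RFC5 lay between -0.12 and -0.06, each with overlapping groups.

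The genes that coat single-stranded DNA and finish Okazaki fragments had a median of -0.19, with 3 of 5 lower without overlap, beside 14.7% of all genes. Sh-YAP1 replicate 1 was the lowest of its group for all 5, with a median of -0.34 from the Sh-NC mean against -0.08 and -0.14 in replicates 2 and 3. RPA2 (ENSG00000117748), the middle subunit of replication protein A, was at 48.6, 51.5 and 50.2 FPKM in Sh-NC and at 36.6, 41.7 and 41.5 FPKM in Sh-YAP1. All 3 Sh-YAP1 libraries stood well below the narrow Sh-NC range. The log2 fold change was -0.32 (SE 0.08, 95% interval -0.51 to -0.14, limma adjusted p = 0.076), the second smallest p of the 46. RPA3 (ENSG00000106399), the small subunit, was at 12.8, 13.6 and 13.4 FPKM in Sh-NC and at 9.75, 12.6 and 11.3 FPKM in Sh-YAP1. Its groups did not overlap, with Sh-YAP1 replicate 2 just below Sh-NC replicate 1, at a log2 fold change of -0.23 (SE 0.10, limma adjusted p = 0.245), or -0.14 without Sh-YAP1 replicate 1. RPA1, the large subunit, had overlapping groups at -0.06, and the differences between the 3 subunits were not tested. FEN1, the flap nuclease, had means of 131 ± 8.96 and 115 ± 10.1 FPKM (SD, n = 3 each) without overlap, and LIG1, which seals the fragments, was at 0.10.

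The nucleotide supply genes held both ends of the list, TK1 lowest and DUT highest, and 4 of the 5 had groups without overlap, beside 29.4% of all genes. Sh-YAP1 replicate 1 was again the lowest of its group for all 5, with a median of -0.26 from the Sh-NC mean against -0.19 and -0.18. TK1 (ENSG00000167900), the S phase thymidine kinase, was at 86.4, 91.6 and 82.7 FPKM in Sh-NC and at 53.6, 71.4 and 68.9 FPKM in Sh-YAP1. Sh-YAP1 replicate 1 was the lowest, and the other 2 Sh-YAP1 libraries were also below every Sh-NC library. The mean was 25.7% lower in Sh-YAP1, and the log2 fold change was -0.43 (SE 0.12, 95% interval -0.72 to -0.15, limma adjusted p = 0.104). The ribonucleotide reductase subunits among the 46, RRM1 and RRM2, which make deoxyribonucleotides, were lower by similar amounts, and neither passed the test. RRM2B, a subunit outside the 46, was at -0.51 on the log2 scale, and the differences between subunits were not tested. RRM1 (ENSG00000167325), the large subunit, was at 76.6, 73.3 and 86.6 FPKM in Sh-NC and at 65.5, 68.8 and 66.7 FPKM in Sh-YAP1. RRM2 (ENSG00000171848), the small subunit that is limiting in S phase, was at 42.0, 45.7 and 46.7 FPKM in Sh-NC and at 35.6, 37.7 and 39.4 FPKM in Sh-YAP1. In both genes every Sh-YAP1 library was below every Sh-NC library. The log2 fold changes were -0.23 (SE 0.08, limma adjusted p = 0.168) for RRM1 and -0.25 (SE 0.08, limma adjusted p = 0.127) for RRM2.

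DUT (ENSG00000128951), the dUTPase that keeps uracil out of DNA and makes the precursor of thymidylate, differed the other way. It was at 30.8, 32.9 and 33.6 FPKM in Sh-NC and at 38.6, 40.1 and 42.1 FPKM in Sh-YAP1. In this sum over transcripts, all 3 Sh-YAP1 libraries, replicate 1 included, were above all Sh-NC libraries. The mean was 24.1% higher in Sh-YAP1, and the log2 fold change was 0.30 (SE 0.07, 95% interval 0.13 to 0.47, limma adjusted p = 0.0745), the smallest p of the 46. TYMS, which makes thymidylate from the product of DUT, was at 101 ± 10.1 and 100.2 ± 9.36 FPKM (SD, n = 3 each), or -0.02 on the log2 scale.

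**Figure D3:**
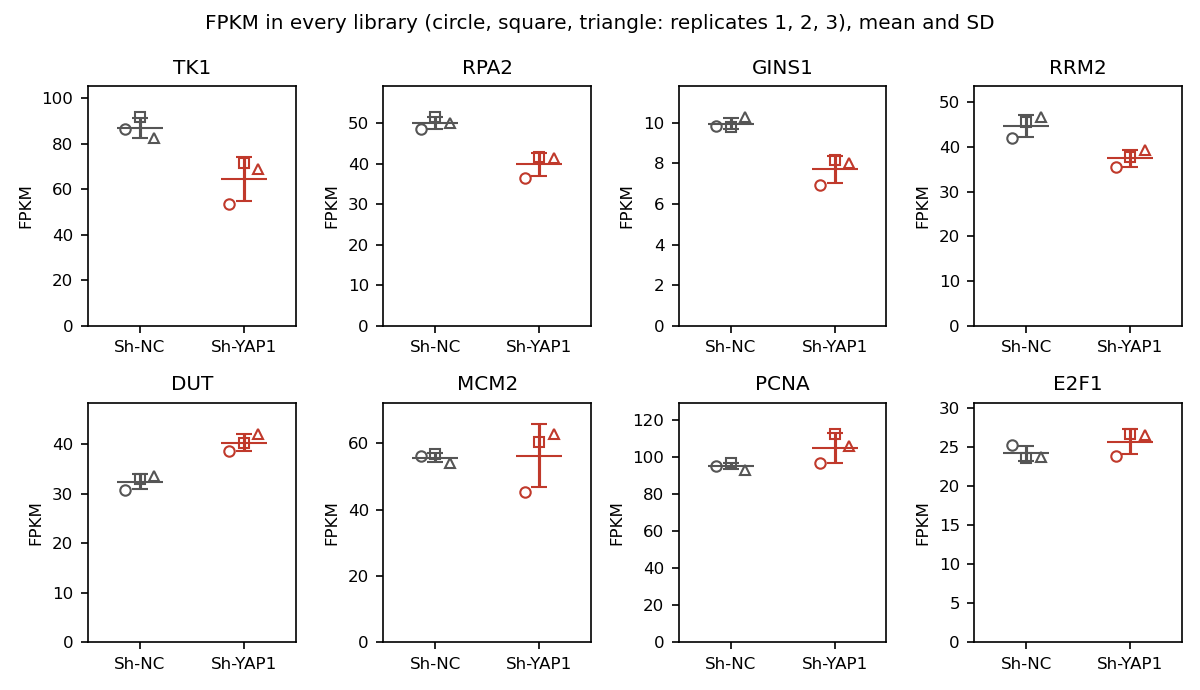
FPKM (y axis from 0) of 8 of the 46 genes in each library of Sh-NC and Sh-YAP1, with the mean and SD of 3 libraries as lines. TK1, RPA2, GINS1 and RRM2 are lower in every Sh-YAP1 library and DUT is higher, while MCM2, PCNA and E2F1 overlap; none passed an adjusted p of 0.05.

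The E2F factors themselves and UHRF1 had a median of -0.04, with 3 of 6 negative. E2F1 (ENSG00000101412), the activator best known for S phase entry, was at 25.3, 23.6 and 23.8 FPKM in Sh-NC and at 23.9, 26.7 and 26.6 FPKM in Sh-YAP1. The values of the groups overlapped, with a log2 fold change of 0.08 (95% interval -0.10 to 0.26, limma adjusted p = 0.576), or 0.13 without Sh-YAP1 replicate 1. E2F3 (ENSG00000112242), another activator, was at 13.8, 13.4 and 14.2 FPKM in Sh-NC and at 12.2, 10.8 and 12.4 FPKM in Sh-YAP1. Its groups did not overlap, and here Sh-YAP1 replicate 2, not 1, was the lowest (log2 fold change -0.21, SE 0.08, limma adjusted p = 0.194). E2F2, the third activator, was at 0.11 on the log2 scale at a level of 2.57 FPKM, where the added 1 shrinks a fold change. The repressors E2F7 and E2F8 stood at -0.17 and 0.03, and UHRF1, which maintains DNA methylation behind the fork, at -0.12. For genes with the E2F letters in the promoter window, the median difference was -0.05 on the log2 scale (14 of 21 negative), against -0.12 (14 of 19 negative) for those without and -0.07 for the 6 with no promoter entry.

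Gene totals were sums over transcripts, and the split among transcripts was less even than the totals. The 46 genes had 404 transcript rows, 1 to 24 for each gene, and the same row held the most FPKM in all 6 libraries for 27 genes. For 14 genes a transcript reached 5 FPKM or more in some library and was at 0.05 FPKM or less in another. A transcript of CDC6 was at 29.5, 30.3 and 0 FPKM in Sh-NC and at 0, 0 and 33.3 FPKM in Sh-YAP1. It was present in exactly the 3 libraries whose CDC6 total was high, and the sum of the other CDC6 transcripts was lower there. A transcript of TK1 was at 60.1 FPKM in Sh-NC replicate 2 and between 2.25 and 5.56 FPKM in the other libraries, while the TK1 total of that library was the highest of Sh-NC by only a few FPKM. For DUT, the transcript with the largest difference was at 0, 6.37 and 8.89 FPKM in Sh-NC and at 13.8, 14.7 and 12.5 FPKM in Sh-YAP1. The other DUT transcripts summed to 30.75, 26.52 and 24.74 FPKM in Sh-NC. In Sh-YAP1 they summed to 24.74, 25.45 and 29.6 FPKM, so the groups overlapped without that 1 transcript. Whether these splits reflect transcripts or their estimation was not tested.

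**Figure D4:**
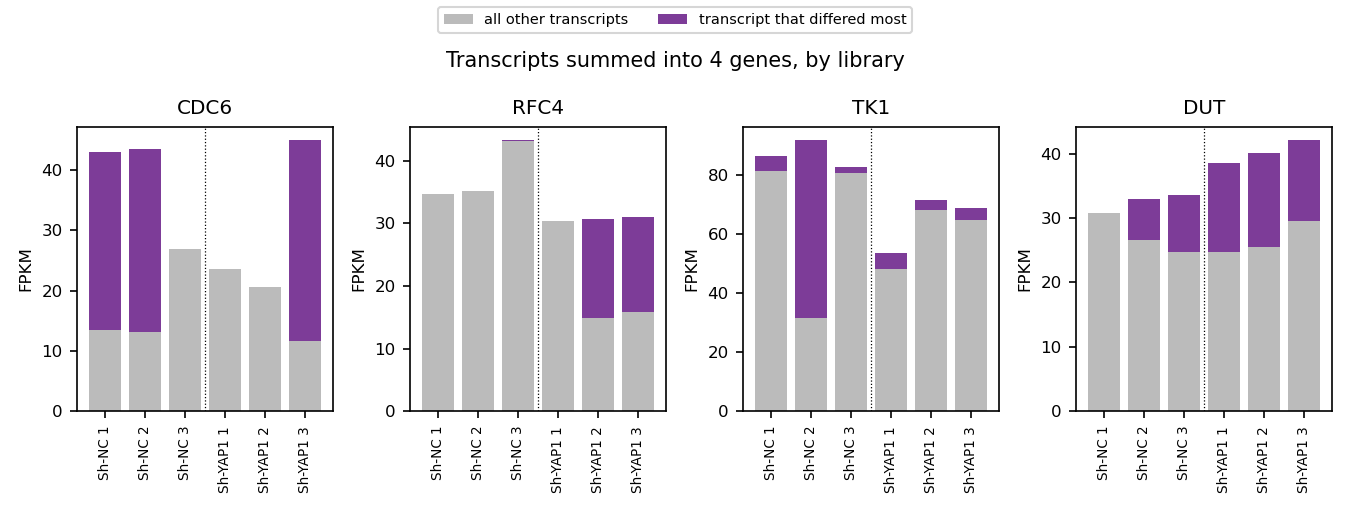
FPKM (y axis) of CDC6, RFC4, TK1 and DUT in each library (x axis), split into the transcript with the largest difference between group means (purple) and the sum of all others (grey). The purple part of CDC6 is present in 3 libraries at 29.5 to 33.3 FPKM and absent in 3, and that of RFC4 is present at 15.7 and 15.2 FPKM in 2 Sh-YAP1 libraries.

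Some totals may also share reads with neighbours, since the values do not say whether strand was used. In GENCODE 29, 20 of the 46 genes share exon bases with another gene, and for 10 of them that gene was at 1 FPKM or more. The most abundant such neighbours were NACA at 246 FPKM on the strand of PRIM1, EIF4A2 at 175 FPKM on the opposite strand of RFC4, WSB2 at 107 FPKM on the opposite strand of RFC5 and FADS2 at 103 FPKM on the strand of FEN1. RPA3 shares bases with UMAD1, which was at 3.56 FPKM in Sh-NC and 4.88 in Sh-YAP1. The values of these genes are uncertain to that extent. Processed copies of the 46 genes added little, the most for DUT, whose 8 pseudogenes summed to 0.55 FPKM.

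Other genes of the pathway are read beside the same 3.38% of all genes called. Of 38 further replication genes, 1 passed the test. RRM2B, the p53-induced small subunit of ribonucleotide reductase, was at 5.51, 6.2 and 6.29 FPKM in Sh-NC and at 3.88, 3.74 and 4.11 FPKM in Sh-YAP1, and fell by 0.51 on the log2 scale (SE 0.09, limma adjusted p = 0.0349). The median over the 38 was -0.0035, with 19 of 38 negative. Of 24 RB, E2F and DREAM regulators, 2 passed, both E2F factors outside the 46. E2F4, which works mainly as a repressor with the pocket proteins, fell from 48.6 ± 1.28 to 38.0 ± 0.95 FPKM (SD, n = 3 each, log2 fold change -0.35, limma adjusted p = 0.0389). E2F5, its close relative, fell from 5.43 ± 0.16 to 3.45 ± 0.22 FPKM (SD, n = 3 each, log2 fold change -0.53, limma adjusted p = 0.0274). The median over the 24 was 0.02. All 3 calls were lost when any single library was left out, with log2 fold changes then of -0.48 to -0.56 for RRM2B, -0.33 to -0.37 for E2F4 and -0.51 to -0.57 for E2F5, and the difference between these genes and E2F1 to E2F3 was not tested.

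The mitotic genes, a later cell cycle group, had their lowest median in another library. Of 26, 4 passed the test, beside 3.38% of all genes, and all were lower: CDC20 fell from 115 ± 6.47 to 78.0 ± 5.37 FPKM, CCNB1 from 121 ± 2.13 to 90.4 ± 6.86 FPKM, PLK1 from 70.7 ± 3.86 to 51.0 ± 3.45 FPKM and AURKB from 108 ± 4.27 to 80.4 ± 2.43 FPKM (SD, n = 3 each). Their log2 fold changes were -0.55, -0.41, -0.46 and -0.42, with limma adjusted p of 0.0245, 0.0385, 0.035 and 0.0268, and these calls too were lost when any single library was left out, with log2 fold changes then of -0.49 to -0.60 for CDC20, -0.37 to -0.47 for CCNB1, -0.41 to -0.51 for PLK1 and -0.39 to -0.45 for AURKB. The groups did not overlap for 11 lower and 2 higher mitotic genes of the 26, beside 14.7% and 14.6% of all genes, and the median was -0.14. By the median over the 26, Sh-YAP1 replicate 3 was the lowest at -0.20 from the Sh-NC mean, and replicate 1 was at -0.03. Replicate 3 was the lowest of its group for 13 of the 26 genes. None of the 4 that passed was among these. CDC20, CCNB1 and AURKB were lowest in Sh-YAP1 replicate 1, at 71.78, 84.78 and 77.78 FPKM, and PLK1 in replicate 2, at 47.05 FPKM. TTTGAA stood in 61.9% of the 21 mitotic promoters matched and the E2F forms in 9.52%. The lists were not tested against each other.

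**Figure D5:**
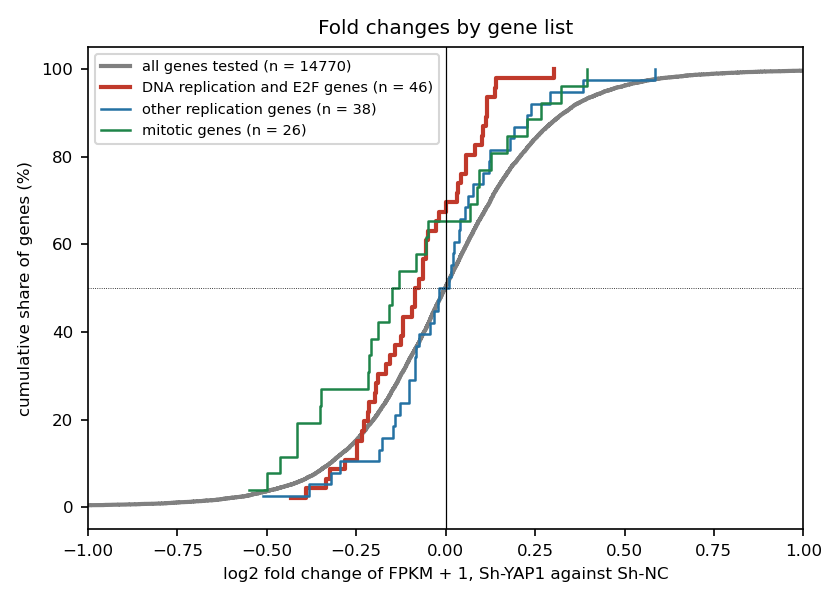
Cumulative share of genes (y axis, %) at or below each log2 fold change of FPKM + 1 (x axis) for all 14770 genes tested, the 46 replication and E2F genes, 38 other replication genes and 26 mitotic genes. The 46 genes cross 50% at -0.08, the mitotic genes at -0.14, and all genes and the other replication genes near 0.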

How the data were processed

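The authors deposited FPKM values with 2 decimals, 1 row per transcript with its gene identifier, for 3 Sh-NC and 3 Sh-YAP1 libraries. The submitters' processing notes name HISAT2 2.0, Bowtie 0.12.2 and hg19; the quantification tool, annotation and strand setting are not given in the sources used here. For its RNA-sequencing the paper cites a different data series; these libraries were tied to it by cell line, hairpin and replicate number. Rows were summed by gene, mapped to symbols by gene identifier, and kept at a mean of at least 0.5 FPKM. GENCODE 29 served for the exon overlaps and pseudogenes. Groups were compared as log2(FPKM + 1), which understates changes of low genes, with limma 3.58.1 (lmFit, eBayes with trend) in R 4.3.3 and Benjamini-Hochberg adjustment over all 14770 genes; an adjusted p under 0.05 was called. Count models were not used, since depth is unknown. Single genes also had an exact two-sided permutation test. The code was tested on simulated data. Tables were handled in Python 3.11.15 with pandas 2.3.3 and numpy 2.4.6, exact tests used scipy 1.17.1, and figures matplotlib 3.10.9. Promoters came from a RefSeq table.

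The genes and lists were chosen with earlier results of these data known. Values in every library were given by rule for YAP1, MCM2, PCNA, RRM2, TK1 and E2F1, for any of the 46 that passed the test, and for the 12 with the largest absolute log2 fold change; of other lists, genes that passed were named, and RFC1, ORC3, ORC4, ORC5 and KRT18 were chosen once their values had been seen. The alternatives changed the pseudocount, scaling, trend, filters, transcripts summed, a replicate block and each library left out. Leaving Sh-YAP1 replicate 1 out of the count of genes without overlap and counting intervals at other pseudocounts were chosen after seeing the data.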

Additional observations from a re-analysis of the deposited data

How the results depend on the processing

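None of the 46 genes passed the test under any of the 15 alternatives, and the smallest adjusted p was 0.0546 (limma, DUT, quantile normalization). The median over the 46 stayed between -0.03 (without Sh-YAP1 replicate 1) and -0.10 (without Sh-YAP1 replicate 2). Of 225 values of the 15 genes named with every library, 221 kept their direction. The 4 others were all MCM2, with log2 fold changes of 0.0414 after quantile normalization, 0.0078 and 0.0133 without Sh-NC replicate 1 or 2, and 0.1454 without Sh-YAP1 replicate 1, all uncalled, in a range of -0.0865 to 0.1454 with 1 library left out. Genes called over the whole table, 499 in the reported fit, were 232 with no filter and 78 to 171 with 1 library left out. The 7 calls among the other replication genes, regulators and mitotic genes became 6 with quantile normalization (PLK1 at an adjusted p of 0.0518, limma), 4 without the mean-variance trend, 2 with no filter and 0 with any library left out. Same-numbered libraries did not deviate together, with correlations across genes of -0.0285, 0.0621 and 0.0042, so the numbers were not treated as pairs. With the replicate block, 1 gene was called over the whole table, 0 in those lists and 0 of the 46. Fewer samples or more genes tested enter these fits by construction; no other cause was tested. Without counts, the smallest detectable FPKM cannot be stated.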

Other observations

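Several genes next to the 46 in the same pathways had an unadjusted p under 0.05 without passing the adjusted threshold, and are given as values only. PRIM2, the partner of PRIM1 in primase, was at 16.1, 18.2 and 16.3 FPKM in Sh-NC and at 13.0, 13.3 and 13.6 FPKM in Sh-YAP1 (log2 fold change -0.32, limma adjusted p = 0.0802). The pocket proteins RBL1 and RBL2, which E2F4 and E2F5 recruit to promoters, were higher in every Sh-YAP1 library, at log2 fold changes of 0.36 (limma adjusted p = 0.0728) and 0.29 (limma adjusted p = 0.172). These genes were chosen after their values were seen.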
